A study of Bactrocera dorsalis with 4 samples.

Results

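The miRNAs miR-14, miR-184, miR-275 and miR-305 of the oriental fruit fly, Bactrocera dorsalis, were examined across 4 small RNA libraries. They were chosen by name: every entry named for miR-14, miR-184, miR-275 or miR-305, of either hairpin arm, whose deposited miRBase status was Yes or Diff. This gave 7 mature names of the 165 with these statuses, namely miR-14-5p, miR-14-3p, miR-184-3p, miR-275-5p, miR-275-3p, miR-305-5p and miR-305-3p. The flies were adults aged 12 days, reared on an artificial diet and separated by sex as newly emerged virgins. Gonads and the remaining bodies were taken by dissection of the mature adults. The libraries came from female bodies without ovaries, male bodies without testes, ovaries and testes, with 1 library each and no stated number of pooled animals. The deposited lists, 1 per library, give sequences with their positions and no amount per entry. A miRNA was therefore described as listed or not listed, no test between libraries was made, and the lists give no depth for an entry. An entry missing from a list was not read as absent from the tissue.

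A miRNA is cut from a hairpin precursor, whose stem can yield a mature product from its 5′ side (5p) and another from its 3′ side (3p). The seed, near the 5′ end of the mature product, guides pairing with target mRNAs, so a change in the seed alters the possible targets while a change at the 3′ end mostly does not. In Drosophila, miR-14 restrains cell death and fat storage and acts on insulin production, and miR-184 is needed in the female germline and for egg patterning. miR-275 is known from the mosquito Aedes aegypti, where it is required for blood digestion and egg development, and miR-305 from Drosophila, where it acts in intestinal stem cells and in the response to nutrients.

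The listed members and their forms are shown here because the results turn on which bases differ between forms. All are written 5′ to 3′ as in the lists, with T for U, and capitals mark the seed (bases 2 to 8).
miR-14-3p, 20 nt: tCAGTCTTtttctctctcct
miR-14-3p, 22 nt: tCAGTCTTtttatctctcccat
miR-184-3p, 22 nt: tGGACGGAgaactgataagggc
miR-184-3p, 23 nt: tGGACGGAgaactgataagggca
miR-275-5p, 23 nt: cGCGCTAAtcagtgaccggggct
miR-275-5p, 22 nt: cGCGCTAAtcagtgaccgggct
miR-275-3p, 23 nt: tCAGGTACctgaagtagcgcgcg
miR-305-5p, 21 nt: aTTGTACTtcatcaggtgctc
miR-305-3p, 22 nt: cGGCACATgttgaagtacattc
The only other form, miR-14-5p of 22 nt, carried the name of a Drosophila chromosome arm and is not printed. The 10 forms were 20 to 23 nt long, and the median over the 235 distinct sequences of the series was 22 nt. Their 7 names had 7 different seeds, and the seed was the same in both forms of every name with 2 forms.

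All 7 mature names were listed in females, males, ovaries and testes. Over the whole series, 108 of 165 names (65.5%) were listed in all 4 libraries. Of the 10 forms, 8 were listed in every library and 2 in a single one. The same split was not counted over all forms of the series, so these counts have no background. Female bodies and male bodies had 9 entries each for these names, and ovaries and testes had 8 each. These were 3.95% of the 228 entries of the female list, 3.83% of 235 for male bodies, 4.12% of 194 for ovaries and 3.85% of 208 for testes, so the share was close to 4% in each list. The entries listed in a single body library were the 22 nt miR-14-3p, listed in females only, and the 22 nt miR-275-5p, listed in males only. The other 5 names had the same sequences in each library, as did 74 of the 108 names of the series that were listed in all 4 (68.5%). A single form was listed for 4 of the 7 names and for 113 of the 165 names of the series (68.5%). The remaining members, miR-14-3p, miR-184-3p and miR-275-5p, had 2 forms each, and up to 9 forms stood under 1 name elsewhere in the series.

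**Figure D1:**
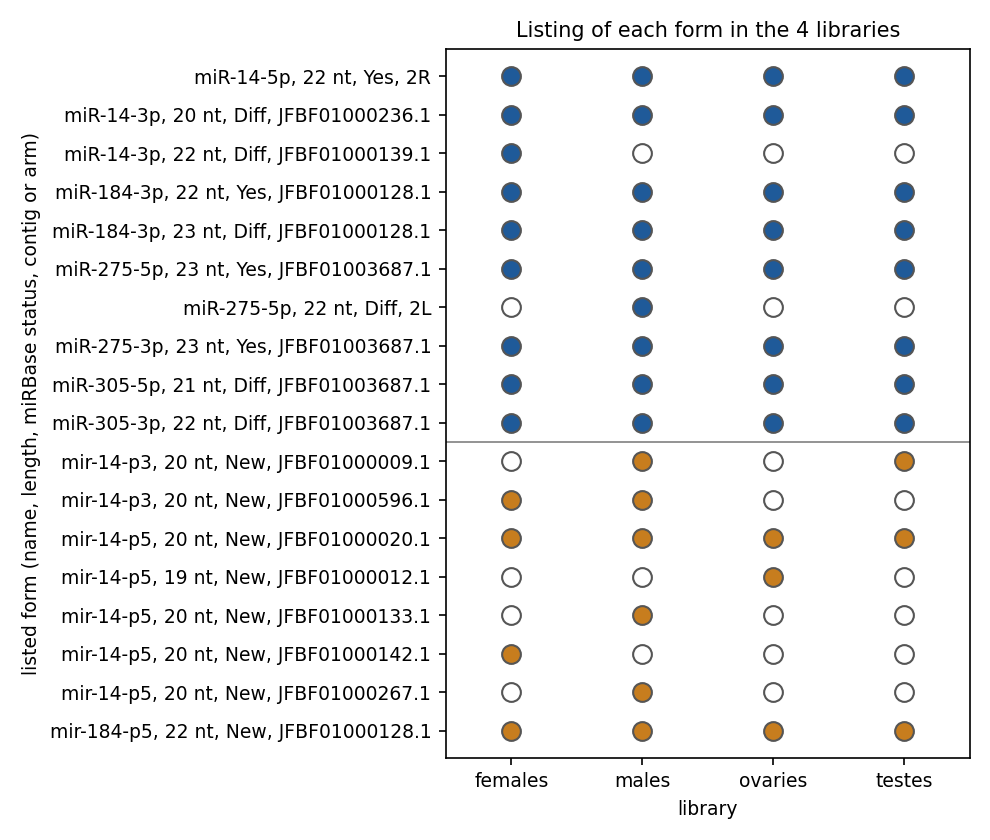
Each row is a listed form of miR-14, miR-184, miR-275 or miR-305 with its length, miRBase status and contig or arm, and each column is a library. A filled circle means listed and an open circle not listed, in blue for status Yes or Diff and in orange for status New. The blue rows are filled in all 4 libraries except for the 22 nt forms of miR-14-3p and miR-275-5p.

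A status of Yes was given to a form of 4 members, miR-14-5p, miR-184-3p, miR-275-5p and miR-275-3p, against 62 of the 165 names of the series (37.6%). miR-14-3p and both arms of miR-305 had forms marked Diff only. On the B. dorsalis contigs, whose names start with JFBF, 8 of the 10 forms were placed. The other 2, miR-14-5p on 2R and the 22 nt miR-275-5p on 2L, carried the name of a chromosome arm as used for Drosophila melanogaster, and so did 78 of the 250 distinct entries of the series (31.2%).

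A 5p sequence from the same hairpin as miR-14-3p was deposited among the predicted miRNAs and not among the known ones. The known list gave miR-14-5p under arm 2R and miR-14-3p on contig JFBF01000236.1, minus strand, from 279258 to 279395. The predicted miRNA PC-5p-23218_92 was listed on the same contig and strand from 279352 to 279485. Its 134 nt precursor contained the 20 nt miR-14-3p base for base. The precursor is shown because it holds both arms, with PC-5p-23218_92 (bases 33 to 54) and miR-14-3p (bases 81 to 100) in capitals.
precursor of PC-5p-23218_92: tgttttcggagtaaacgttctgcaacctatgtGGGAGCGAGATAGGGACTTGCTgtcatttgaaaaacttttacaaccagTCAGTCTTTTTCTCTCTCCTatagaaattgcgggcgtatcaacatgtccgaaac
PC-5p-23218_92, seed in capitals: gGGAGCGAgatagggacttgct
PC-5p-23218_92 and miR-14-5p had the same base at 18 of 22 positions and the same seed. Refolding the precursor gave -46.3 kcal/mol, where the deposited table has -44.8 kcal/mol. In the refolded structure 17 base pairs joined the 22 nt 5p sequence to miR-14-3p. This structure differs from the deposited one, for which the pairs between the arms are not given here. A stretch of 26 bases lay between the arms. The predicted table covers the 4 libraries combined, so the libraries that held PC-5p-23218_92 are not known.

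Sequences close to miR-14-3p were listed at 8 further places in the genome. They are the 22 nt form marked Diff, on contig JFBF01000139.1, and 7 entries named mir-14 with the status New. The status New had 62 distinct entries in the series. Of these, 7 were numbered 14 and 7 were numbered 1, and no other number had more than 2. The 8 sequences are shown with the bases that differ from the 20 nt miR-14-3p in capitals, compared from base 1 at the 5′ end without gaps, and each New entry is given with its contig.
miR-14-3p, 22 nt: tcagtctttttAtctctccCat
mir-14-p5, JFBF01000020.1: tcaTtctttttctctctccC
mir-14-p3, JFBF01000009.1: tcaAtctttttctctctccA
mir-14-p3, JFBF01000596.1: tcaTtctttttctctctcAt
mir-14-p5, JFBF01000012.1: tcaTtctttttctctctcT
mir-14-p5, JFBF01000133.1: tcagActttttctctctccC
mir-14-p5, JFBF01000142.1: tcagtctttttAtctctccA
mir-14-p5, JFBF01000267.1: tcagCctttttctctctccA
Each of the 8 differed from miR-14-3p at 2 bases within the compared length. The New entry on JFBF01000020.1 had G4T and T20C and was listed in all 4 libraries. That on JFBF01000009.1 had G4A and T20A and was listed in males and testes. The entry on JFBF01000596.1 had G4T and C19A and was listed in females and males. The other 4 were listed in a single library, that on JFBF01000012.1 in ovaries, those on JFBF01000133.1 and JFBF01000267.1 in males, and that on JFBF01000142.1 in females. Of all New entries in a list, mir-14 made up 3 of 22 in females, 5 of 28 in males, 2 of 25 in ovaries and 2 of 21 in testes, counts too small to order the libraries. The seed of miR-14-3p was kept in 1 of the 7, that on JFBF01000142.1, which shares C12A with the 22 nt form. In the other 6 the difference at base 4 or 5 lay in the seed. Although all 7 resemble the 3p arm of miR-14, 5 carry the suffix p5 and 2 the suffix p3.

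The New entry on JFBF01000020.1 lay on the plus strand from 1027588 to 1027686. Its nearest listed neighbours were miR-13b-3p, 5630 bases away, miR-13a-3p, 6022 bases away, and miR-2a-3p, 8141 bases away. These neighbours belong to a family known from Drosophila to repress pro-apoptotic genes. All these distances exceed 2312 bases, the largest gap among the 19 neighbouring pairs of known precursors within 10000 bases on 1 contig and strand. At the place of miR-2a-3p, mir-2c-p5 with status New (8141 bases away) and the predicted PC-5p-57217_26 (8156 bases away) were also listed. None of the other places with a sequence close to miR-14-3p had a listed miRNA of another number within 10000 bases, except the hairpin of PC-5p-23218_92. The listed precursor span was under 50 bases for 3 of the 9 places with this sequence or one close to it: 47 bases for the 22 nt miR-14-3p, 44 for the New entry on JFBF01000009.1 and 48 for that on JFBF01000142.1. Such short spans were seen in 15 of the 250 distinct entries with status Yes or Diff (6.0%) and in 30.6% of the New entries.

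**Figure D2:**
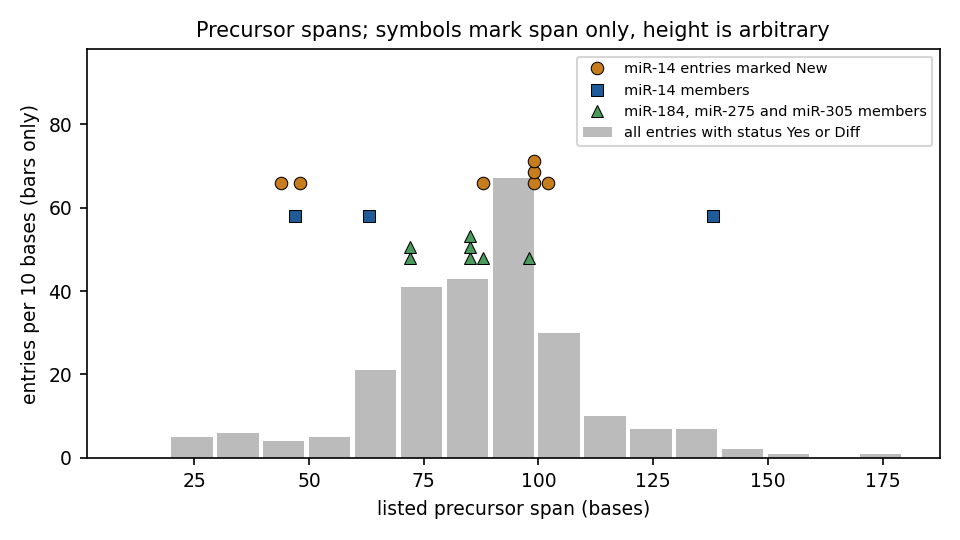
The grey bars count the 250 distinct entries with status Yes or Diff by listed precursor span, in steps of 10 bases. Symbols mark the spans of the miR-14 entries marked New (orange circles), the miR-14 members (blue squares) and the other members (green triangles), and their height has no meaning. The members of miR-184, miR-275 and miR-305 lie between 72 and 98 bases, while the miR-14 entries spread from 44 to 138 bases.

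miR-184-3p was listed in every library as 2 sequences with a common start, of 22 nt (status Yes) and 23 nt (status Diff). Both were on contig JFBF01000128.1, plus strand, the shorter with a precursor from 433641 to 433725 and the longer with one from 433640 to 433727. The 23 nt form is the 22 nt form with an A added at its 3′ end. The precursor sequence in the study's supplementary list has T at that place, so the added base is T23A against it. No miR-184-5p with status Yes or Diff was listed. The 5p side was listed as mir-184-p5, with status New and in all 4 libraries, at the same position as the longer form. Its sequence is given because it completes the hairpin, with the seed in capitals.
mir-184-p5, 22 nt: cCTTATCAttctttcgccccgt
Between mir-184-p5 and miR-184-3p lay 15 bases. Paired with each other alone, the 2 arms formed 17 base pairs with an energy of -18.2 kcal/mol.

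miR-275 and miR-305 lay beside each other on contig JFBF01003687.1, both on the minus strand. The precursor of miR-275 was listed from 2731 to 2815 and that of miR-305 from 2581 to 2652, so that miR-275 is on the 5′ side. The listed spans were 85 and 72 bases long with 78 bases between them, and together they covered 235 bases. Gaps by listed position were 78 to 2312 bases, with a median of 422 bases, for the 19 pairs of neighbouring known precursors within 10000 bases on 1 contig and strand. That of miR-275 and miR-305 was the smallest, as far as listed minus-strand positions can be relied on. No other known or predicted miRNA was listed on this contig. The precursors are shown from the study's supplementary list, with the mature arms in capitals.
miR-275 precursor: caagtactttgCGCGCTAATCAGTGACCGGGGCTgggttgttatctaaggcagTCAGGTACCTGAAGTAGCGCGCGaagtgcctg
miR-305 precursor: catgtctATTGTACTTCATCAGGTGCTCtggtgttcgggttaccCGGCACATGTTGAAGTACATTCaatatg
Both hairpins had both arms listed in all 4 libraries. Both arm names of miR-14 were also listed in all 4. Their positions cannot be compared, because miR-14-5p carried the Drosophila arm name 2R and miR-14-3p was on a contig. By sequence, the 5p arm in the hairpin of miR-14-3p is PC-5p-23218_92, which matches miR-14-5p at 18 of 22 positions. The listed miR-14-5p is therefore not the 5p sequence of that hairpin, and both arms of miR-14 are counted by name only. In the series 45 of 106 miRNAs with an arm in their name had both arms (42.5%), and 22 (20.8%) had both in every library. The arms of miR-275 were 19 bases apart and those of miR-305 were 16 bases apart. Paired alone, the arms of miR-275 formed 14 base pairs with an energy of -19.6 kcal/mol, and those of miR-305 formed 16 base pairs with -21.5 kcal/mol.

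The 22 nt miR-275-5p, listed in males only, differed from the 23 nt form of all 4 libraries by 1 base. It had 3 G in a row near the 3′ end where the longer form had 4, and it shared the first 20 and the last 5 bases with it. It carried the status Diff and was placed on arm 2L, plus strand, from 7425795 to 7425892. Because 2L is a Drosophila arm name, this position cannot be compared with the contig that holds miR-305 and the 23 nt form. It therefore does not show a separate place of miR-275 in B. dorsalis.

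**Figure D3:**
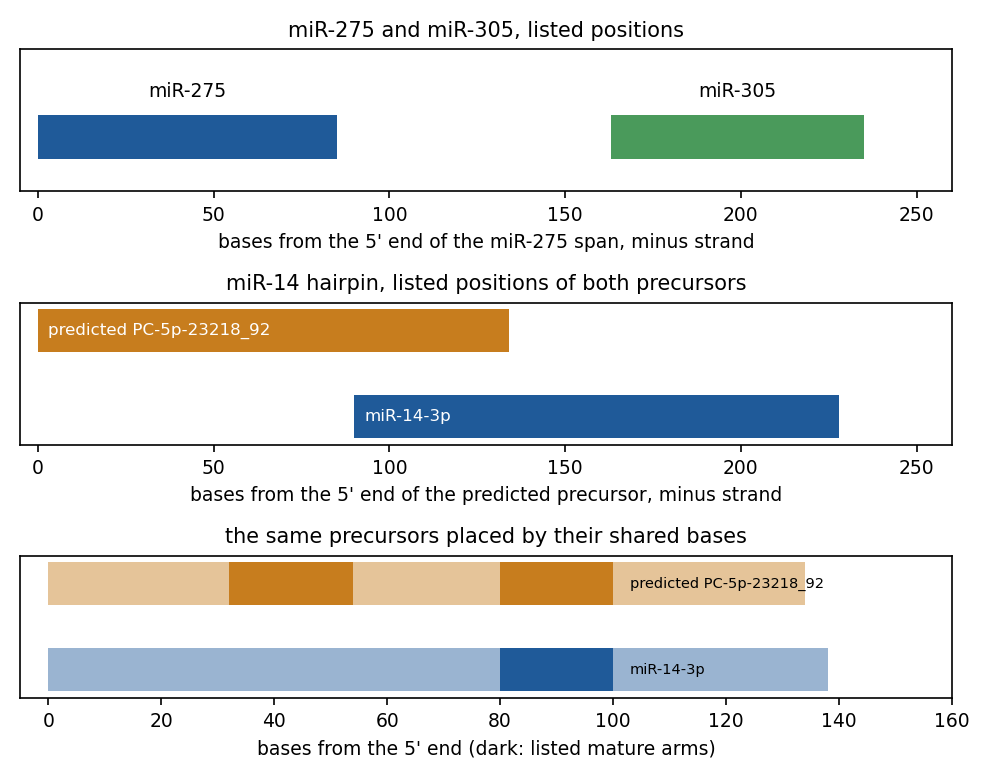
The upper map places the precursors of miR-275 and miR-305 by their listed positions in bases from the 5′ end, with 78 bases between them. The middle map shows the listed positions of the precursors of PC-5p-23218_92 and miR-14-3p, which overlap by 44 bases, and the lower map shows the same 2 precursors placed by their shared bases, with the mature arms dark, where both start at the same base.

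Listed positions on the minus strand did not match the listed sequences, which bears on these distances. The precursors of PC-5p-23218_92 and miR-14-3p shared a run of 134 bases and began with the same base, while their listed ends differed by 90 bases. The same check was made for each pair of overlapping precursors of the series on 1 strand that shared at least 25 bases. On the plus strand, positions and sequences gave the same offset in 3 of 3 pairs. On the minus strand they differed in 6 of 6 pairs, by 4 to 90 bases. Known precursors were paired with each other for miR-210 and miR-210-5p (38 bases) and for miR-307 and miR-307a-3p (45 bases). The other minus-strand pairs set a known precursor against a predicted one. The precursors of miR-275 and miR-305 share no such overlap, so their positions could not be checked in this way. Both are known entries. Their gap of 78 bases is larger than the differences for pairs of known precursors, 38 and 45 bases. It is close to the differences of 72 and 77 bases and smaller than the largest, 90 bases. These were for pairs of a known and a predicted precursor, and which of such a pair is misplaced was not determined. The precursors of miR-184 are on the plus strand.

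**Figure D4:**
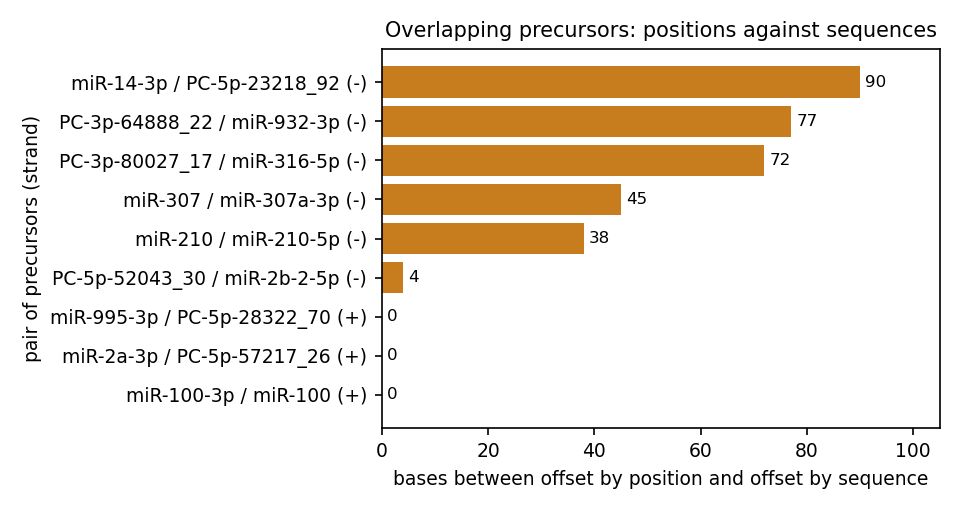
Each bar is a pair of overlapping precursors on the strand given in brackets, and its length is the difference in bases between their offset by listed position and their offset by shared sequence. The 3 plus-strand pairs are at 0, and the 6 minus-strand pairs (orange) range from 4 to 90, with the pair of miR-14-3p and PC-5p-23218_92 at 90.

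Outside its own hairpin, miR-275-3p was the only member whose seed (bases 2 to 8) occurred under another number. How often this holds for the other names of the series was not counted. A 20 nt form of miR-306-5p had the same seed and was listed in all 4 libraries, on JFBF01000027.1, minus strand, from 1321840 to 1321903. It is shown with the seed in capitals beside the sequence of miR-275-3p given above.
miR-306-5p, 20 nt: cCAGGTACttagtgactctc
From base 2 on, the common run of the 2 miRNAs was 7 bases, which is the seed and no more. The other form of miR-306-5p, of 21 nt on arm 2L, does not have this seed. With bases 2 to 7 alone, miR-14-3p also shared its seed with an 18 nt form of miR-11-3p that was listed in all 4 libraries. The paper groups miR-11 with miRNAs of the seed ATCACAG, which this 18 nt form does not have at bases 2 to 8. The match therefore holds for this form and not for miR-11 as the paper groups it.

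Other miRNAs known from Drosophila for roles like those of the members were read from the same lists. Of 5 miRNAs for metabolism and growth, 4 were listed, with 5 mature names, of which 4 were in all 4 libraries. These were both arms of miR-8, which acts on insulin signalling in the fat body, miR-277-5p, from a miRNA that acts on the breakdown of branched-chain amino acids, and miR-278-3p, from a miRNA of energy balance. The exception was miR-33-5p, listed in females and ovaries. Of 9 miRNAs for germline and ovary, 7 were listed, with 9 mature names, of which 7 were in all 4 libraries. The exceptions were miR-310-3p, listed in females and testes, and miR-312-3p, listed in females, males and ovaries. Over the whole series, 108 of 165 names (65.5%) were in all 4 libraries, and no test of these short lists was made. bantam, a growth-promoting miRNA that was on both lists, and miR-313 were not listed under these names.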

How the data were processed

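Each of the 4 conditions had 1 small RNA library. Per the study's methods, reads were trimmed and those of low quality or from mRNA, Rfam or Repbase sequences were discarded. Reads within 1 mismatch of miRBase, or of miRNAs found before in this species, were called known. The deposited lists hold names, sequences, lengths in nt, precursor positions in bases and a miRBase status, without amounts, so no depth or interval is given. 1 line of the deposited table of predicted miRNAs is not analysed here. The build behind the Drosophila arm names is not given in the sources used here, and no genome sequence was used.

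Names, forms, spans and seeds were counted with Python 3.11.15 and pandas 2.3.3 over exact names, and plots were drawn with matplotlib 3.10.9. Mismatches were counted from base 1 without gaps. Precursors were refolded with RNAfold and arms paired with RNAduplex (ViennaRNA 2.7.2), both on default settings. Precursor sequences of known miRNAs, but no values, came from the study's supplementary list. Scripts were tested on made-up sequences and 351 of 351 cases were recovered. The text names all members, entries of the same numbers marked New, miRNAs within 10000 bases, names sharing a seed, names with the same entry counts (only counted where more than 5) and 2 Drosophila lists. Members and lists were chosen with earlier results of these data known. The position check, the refolding, the pairing of arms and the counts of mismatches were added after the lists had been seen. Alternatives changed the status, the arm names, the seed and the distances.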

Additional observations from a re-analysis of the deposited data

How the results depend on the processing

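With status Yes only, 4 of the 7 mature names were listed in all 4 libraries, in place of 7. Measured between the starts of their spans, miR-275 and miR-305 were 150 bases apart, against 78 bases between the spans. Each other alternative stayed within 1.5 times the value given: with New entries included, 9 names were listed in all 4 libraries and 4 of the miRNAs had both arm names in place of 3, and without entries under an arm name, 6 names and 8 forms remained in the count. A seed of bases 2 to 7 gave 3 shared seeds in place of 2, counting that of PC-5p-23218_92 and miR-14-5p. Windows of 1000 and 50000 bases gave the same number of members with a neighbour as 10000 bases, which was 5. No paired analysis was possible because each condition had 1 library. The lists hold no amounts, so a form listed in 1 library cannot be told apart from one that lay near the limit of detection in the others.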

Other observations

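The 20 nt miR-14-3p was the most pyrimidine-rich of the known sequences, with C or T at 18 of its 20 bases (90.0%). The median over the 235 distinct sequences with status Yes or Diff was 52.4%, and no other reached 90.0%. The New entries close to it had C or T at 16 to 19 bases.

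The numbers of entries in the 4 libraries were compared between names. No other name had the pattern of miR-14-3p, with 2 entries in females and 1 in each other library. The pattern of miR-275-5p, with 2 entries in males and 1 elsewhere, was shared by 4 names, miR-281-2-5p, miR-971-3p, miR-993-3p and miR-993-5p. The pattern of 2 entries in every library, as for miR-184-3p, was shared by 15 names, and that of 1 entry in every library, as for the other members, by 56 names besides each of those members.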
